A study of Mus musculus with 12 samples.

Results

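The genes described here encode the subunits of the transcription factor NF-kB and the proteins that hold it back or steer it. The 10 genes were the subunits Rel, Rela, Relb, Nfkb1 and Nfkb2 and the inhibitors and cofactors Nfkbia, Nfkbid, Nfkbiz, Tnfaip3 and Bcl3. They were chosen by symbol, and 9 of the 10 matched a probe set with exactly 1 gene symbol, 1 probe set each, out of 22180 genes with such probe sets in all. Nfkb1 was not analysed here.

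NF-kB subunits pair through a shared Rel homology domain. In a resting cell the pairs are kept in the cytoplasm by inhibitors with ankyrin repeats such as the product of Nfkbia, and signals from the T cell receptor, costimulators and cytokine receptors release them to the nucleus. Nfkbia and Tnfaip3 are themselves induced by NF-kB and close a negative feedback loop. In regulatory T cells (Treg) the product of Rel, c-Rel, is known for its part in switching on Foxp3, the transcription factor that defines the lineage, and Rela and Nfkbid are known for roles in the maturation or induction of these cells.

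Expression was measured on Affymetrix arrays in Treg sorted from the spleens of DEREG mice, whose Foxp3-expressing cells can be removed with diphtheria toxin (DTx), after sensitization and challenge with ovalbumin (OVA). All groups shared the strain and the OVA exposure, and each had 4 biological replicates, 1 array each. For eTreg, endogenous Treg, the animals had received a control protein, human serum albumin (HSA), and no DTx. For e_iTreg they had received intravenous immunoglobulin (IVIg) and no DTx, and this group is labelled as mixed endogenous and IVIg-induced Treg, while for iTreg, IVIg-induced Treg, DTx had been followed by IVIg. Doses were 2 g/kg for IVIg and HSA and 40 ng/g for DTx. The shared growth protocol places DTx before IVIg or HSA, so the use of DTx by group follows the series design. A combination of DTx with HSA was not analysed here, and in iTreg minus eTreg the effects of IVIg and of DTx cannot be told apart. The labels do not say whether animals were pooled.

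Values are log2 expression values, levels are given per array and as mean ± SD (n = 4), and differences as log2 difference ± SE from limma. Adjusted p-values are Benjamini-Hochberg values over all 23521 probe sets tested, with a threshold of 0.05, and the 3 comparisons share groups, so they are not independent of each other. The Treg label was checked against its markers. For Foxp3 the group means were 12.46 ± 0.09 (eTreg), 12.3 ± 0.21 (e_iTreg) and 12.17 ± 0.25 (iTreg), and Cd3e and Cd4 had group means of 12.13 to 12.20 and 10.40 to 10.52. Of 16 measured Treg markers Capg rose and Ikzf4, Izumo1r and Lrrc32 fell in iTreg against either other group. Of all probe sets, 5.36% rose and 4.63% fell against eTreg, and 6.49% and 4.75% against e_iTreg. Foxp3 was at -0.29 ± 0.13 against eTreg (limma adjusted p = 0.218) and Gpr83 at -0.99 ± 0.30 (adjusted p = 0.0505), neither past the threshold. Of the 16, 12 were below 0 against eTreg, and 7 had an unadjusted p under 0.05, beside 21.7% of all probe sets.

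Markers of other cells varied between arrays. The mean of 16 B cell markers was 6.33 and 6.36 in eTreg replicates 3 and 4 and 6.32 in e_iTreg replicate 4, against 7.5 to 8.5 in the other 9 arrays, and none of the 16 passed the test in any comparison (unadjusted p under 0.05 in 0). The mean of 10 plasma cell markers was 9.5 in iTreg replicate 4 against 7.45 to 8.22 elsewhere, with Jchain, the joining chain of antibodies, at 11.69 there and at 4.84 to 8.18 in the other arrays. Prdm1, a regulator of plasma cells that effector Treg also express, was the 1 of these 10 past the threshold, and it rose in iTreg by 1.04 ± 0.19 against eTreg and by 0.94 ± 0.19 against e_iTreg (limma adjusted p = 0.00364 and 0.00634), with all 4 iTreg arrays above the other 8. The mean of 23 monocyte, macrophage and dendritic cell markers ranged from 6.60 to 7.17 in eTreg, 6.58 to 7.22 in e_iTreg and 7.17 to 8.09 in iTreg. The 8.09 was iTreg replicate 4 alone, the array high in plasma cell markers, and the other iTreg arrays were at 7.17 to 7.37. Of the 23, 4 rose in iTreg against eTreg (Bst2, Ccr2, Cst3 and Itgam), with all 4 iTreg arrays above the other 8. Against e_iTreg the same 4 rose and Siglech fell, with Lyz2 and Cd14 not past the threshold. Of all probe sets, 5.36% rose against eTreg, and against e_iTreg 6.49% rose and 4.75% fell. Ranges lay apart with iTreg higher for 6.9% against eTreg and 7.57% against e_iTreg. The mean of 15 CD8 T and NK cell markers was 6.70 to 7.41, 6.70 to 7.45 and 7.48 to 7.88 in eTreg, e_iTreg and iTreg. Of the 15, 4 rose in iTreg against either other group (Gzma, Gzmb, Gzmk and Nkg7), beside 5.36% and 6.49% of all probe sets. Gzmb rose by 4.18 ± 0.53 against eTreg, while the median difference of the 15 was 0.20. Cd160 fell against e_iTreg by 0.35 ± 0.10 (limma adjusted p = 0.0343). Cd8a, Cd8b1, Klrd1, Ncr1, Klrb1c, Eomes, Prf1 and Ccl5 were not past the threshold. Whether the genes that rose in these lists came from other cells or from Treg was not tested. Sex-linked transcripts set 3 arrays apart. The X-linked Xist was at 5.82 in e_iTreg replicate 4 and at 10.3 to 11.4 in the other arrays. The Y-linked Eif2s3y was at 9.72 in e_iTreg replicate 4, at 4.33 in eTreg replicate 3 and 4.47 in iTreg replicate 4. In the other 9 arrays it was at 7.12 to 8.40 with Xist high as well, as in RNA of both sexes. How that came about was not tested. The Y-linked Kdm5d had group means of 6.77 ± 0.90 (eTreg), 7.84 ± 0.70 (e_iTreg) and 6.28 ± 1.15 (iTreg). Its difference of iTreg from e_iTreg was -1.55 ± 0.52 (limma adjusted p = 0.071). None of the 4 measured sex-linked genes passed the threshold, but the groups were not balanced in these transcripts. No defining marker was at 0 on this scale, but that does not show that each was expressed in every array. Jchain (down to 4.84) and Cd14 (down to 5.52) reached levels below 6.28, the lowest array median of all probe sets. The part of these cells in the results below was not tested beyond the fits with B cell markers and with sex-linked transcripts. In sorted bulk samples, fewer cells of a type and less RNA per cell cannot be told apart.

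**Figure D1:**
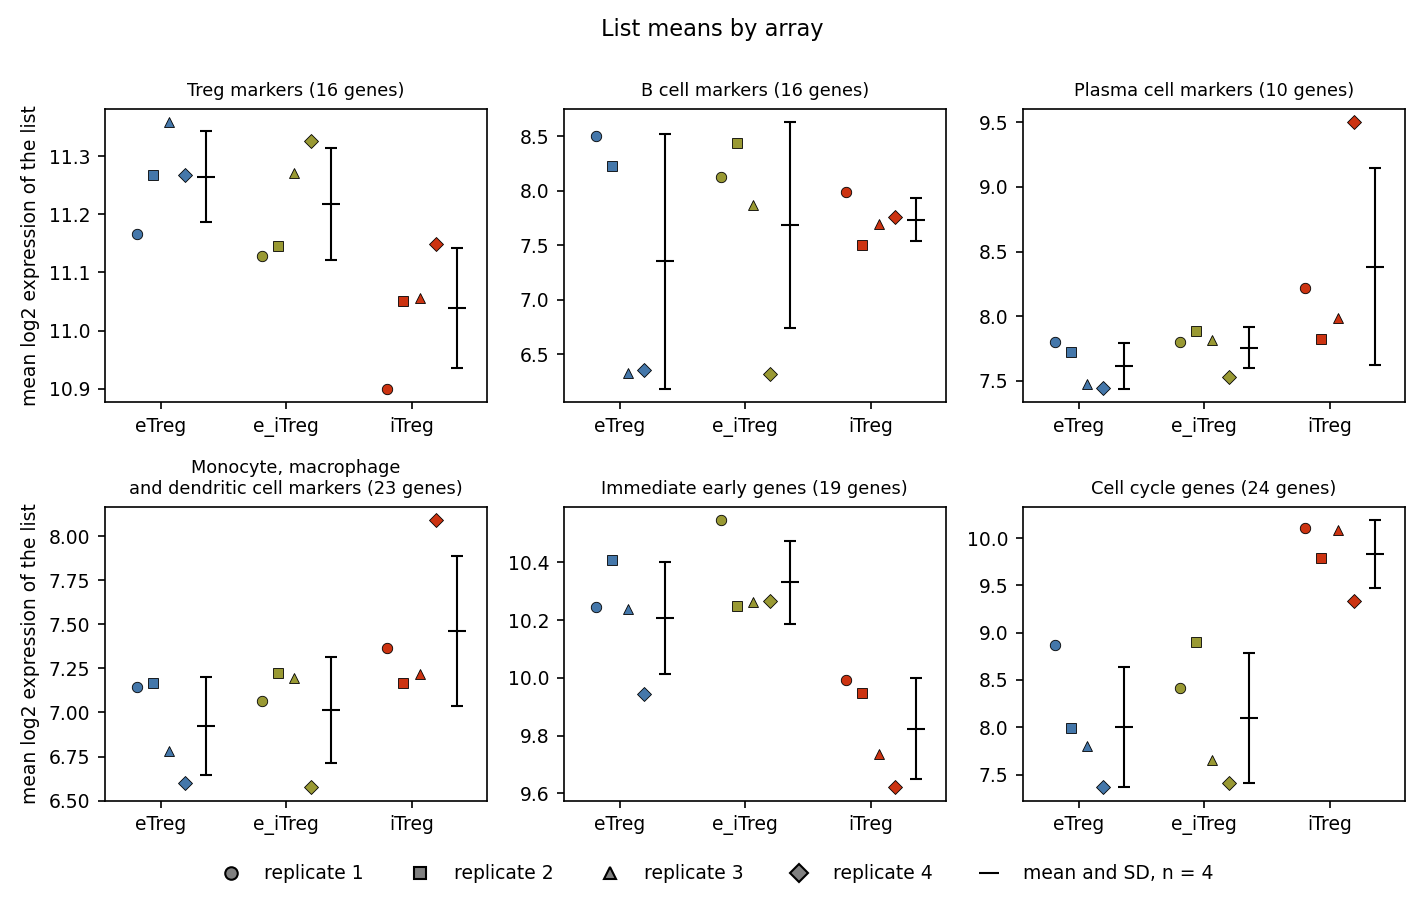
Mean log2 expression of 6 gene lists in each array, by group, with the group mean and SD (n = 4) beside the points. B cell markers are low in 3 arrays (6.32 to 6.36), plasma cell markers are high in iTreg replicate 4 (9.5), the group mean of immediate early genes is lowest in iTreg, where 2 arrays overlap with eTreg replicate 4, and cell cycle genes are highest in all 4 iTreg arrays. Each panel has its own axis.

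The question of the first comparison, iTreg minus eTreg, was how induced Treg differ from endogenous Treg. Of the 9 measured NF-kB genes, Rel and Tnfaip3 fell in iTreg and none rose. That is 2 of 9 lower, beside 4.63% of all probe sets tested that were lower and 5.36% that were higher. The 9 genes were bright, with mean levels at the 81.3 (Bcl3) to 99.6 (Nfkbia) percentile of these probe sets. Shares and medians over all probe sets, here and below, cover dim ones as well. The differences of 8 of the 9 were below 0, with a median of -0.34 against a median of -0.01 over all probe sets. The exception was Bcl3, whose difference was above 0 but not past the threshold. An unadjusted p under 0.05 was reached by 6 of the 9, beside 21.7% of all probe sets. Rel alone had ranges that did not overlap between the groups, beside 7.82% of all probe sets with iTreg lower and 6.9% with iTreg higher.

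Against e_iTreg, the comparison of Treg after depletion with Treg without depletion under the same IVIg, 3 of the 9 fell in iTreg (Rel, Tnfaip3 and Nfkbid) and 1, Bcl3, rose. The share of all probe sets was 4.75% lower and 6.49% higher. The median difference of the 9 was -0.32 against -0.07 over all probe sets, and 7 of the 9 had an unadjusted p under 0.05, beside 26.3% of all. Ranges lay apart with iTreg lower for 5 of the 9 (Rel, Rela, Relb, Nfkb2 and Tnfaip3), beside 9% of all probe sets, and with iTreg higher for Bcl3, beside 7.57%. Median centring of each array changed the share of falls among all calls from 42.3% to 20.3% in this comparison and left Rel and Bcl3 as the members past the threshold.

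In e_iTreg minus eTreg, the comparison of IVIg with HSA while endogenous Treg were present, limma called none of the 9, beside 0% of all probe sets called. An unadjusted p under 0.05 was reached by 1 of the 9, Bcl3, beside 7.01% of all probe sets.

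**Figure D2:**
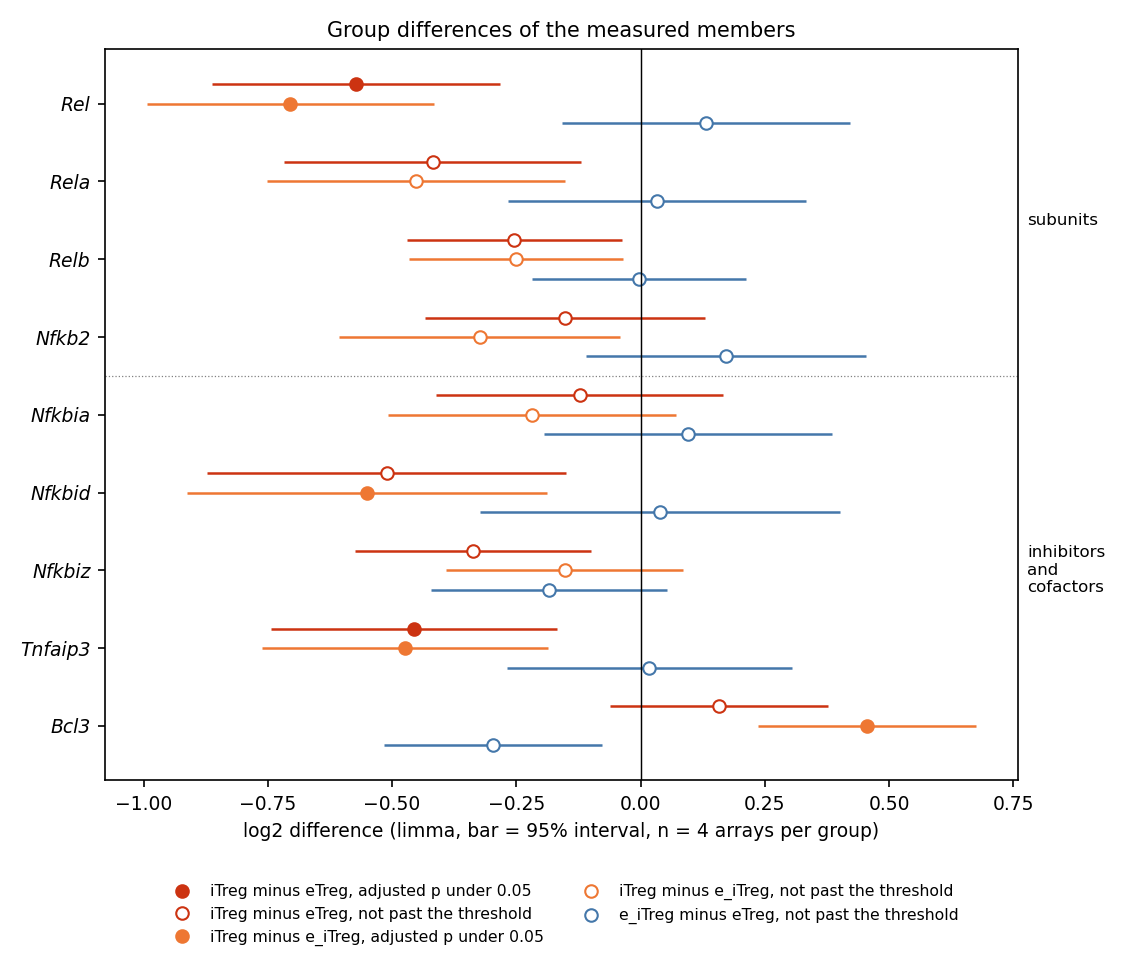
Log2 differences of the 9 measured genes in the 3 comparisons with 95% intervals from limma, filled where the adjusted p was under 0.05. Rel and Tnfaip3 are filled and below 0 against both other groups, Nfkbid against e_iTreg only, and Bcl3 is filled and above 0 against e_iTreg, while no point of e_iTreg minus eTreg is filled.

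Rel encodes c-Rel, the subunit that lymphocytes are known to induce on activation. Its log2 level was 12.22, 12.14, 12.56 and 11.83 in eTreg replicates 1 to 4. It was 12.28, 12.21, 12.36 and 12.44 in e_iTreg and 11.68, 11.80, 11.56 and 11.42 in iTreg. All 4 iTreg arrays lay below all 8 others, and the closest were eTreg replicate 4 and iTreg replicate 2. Rel fell by 0.57 ± 0.14 on the log2 scale against eTreg (32.8% lower, limma adjusted p = 0.0143), with a 95% interval from -0.86 to -0.28. Against e_iTreg it fell by 0.70 ± 0.14 (38.6% lower, limma adjusted p = 0.0046), interval -0.99 to -0.42. Without the 3 arrays low in B cell markers the difference from eTreg was -0.57 with adjusted p = 0.0521, and the fall against e_iTreg kept its call (adjusted p = 0.0101).

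Rela encodes the activating subunit RelA, found in most cell types. Its level was 10.82, 10.93, 11.03 and 10.30 in the eTreg arrays, 10.76, 10.62, 10.81 and 11.03 in e_iTreg and 10.26, 10.37, 10.39 and 10.38 in iTreg. The iTreg arrays were close together and lay below every array of the other groups but eTreg replicate 4. The difference was -0.42 ± 0.14 against eTreg (limma adjusted p = 0.0779) and -0.45 ± 0.14 against e_iTreg (adjusted p = 0.0511), so Rela missed the threshold in both. It passed in 4 of 24 alternative fits against eTreg and in 9 of 24 against e_iTreg. Leaving out 1 array moved its adjusted p against eTreg from 0.00832 (without eTreg replicate 4, at -0.58) to 0.231 (without eTreg replicate 3, at -0.33).

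Relb and Nfkb2 encode the partners of the noncanonical pathway, in which the precursor made from Nfkb2 is processed after signals through the kinase encoded by Map3k14. Relb was at 9.29, 9.17, 9.33 and 8.99 in the eTreg arrays, 9.19, 9.18, 9.26 and 9.15 in e_iTreg and 8.95, 9.06, 9.02 and 8.74 in iTreg. Its iTreg arrays lay below all e_iTreg arrays and overlapped with eTreg at eTreg replicate 4. The differences were -0.25 ± 0.10 against eTreg and -0.25 ± 0.10 against e_iTreg, with limma adjusted p = 0.147 and 0.13. Nfkb2 was at 10.17, 10.04, 10.35 and 9.68 in the eTreg arrays, 10.20, 10.30, 10.25 and 10.18 in e_iTreg and 10.07, 9.73, 10.05 and 9.78 in iTreg. Its ranges overlapped broadly between iTreg and eTreg, where the difference was -0.15 ± 0.13 (adjusted p = 0.595), and lay apart from e_iTreg, where it was -0.32 ± 0.13 (adjusted p = 0.134).

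The eTreg arrays differed among themselves in these genes. Of the 9 genes, 7 were lowest in eTreg replicate 4 and 6 were highest in eTreg replicate 3. For Rel these replicates lay 0.73 apart, and for Rela 0.73, more than the group differences of either gene. Both arrays were among the 3 with low B cell markers. The e_iTreg arrays were closer together for Rel (range 0.23), Relb (0.10), Nfkb2 (0.12) and Tnfaip3 (0.11), and no e_iTreg array was lowest for more than 4 of the 9 genes.

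**Figure D3:**
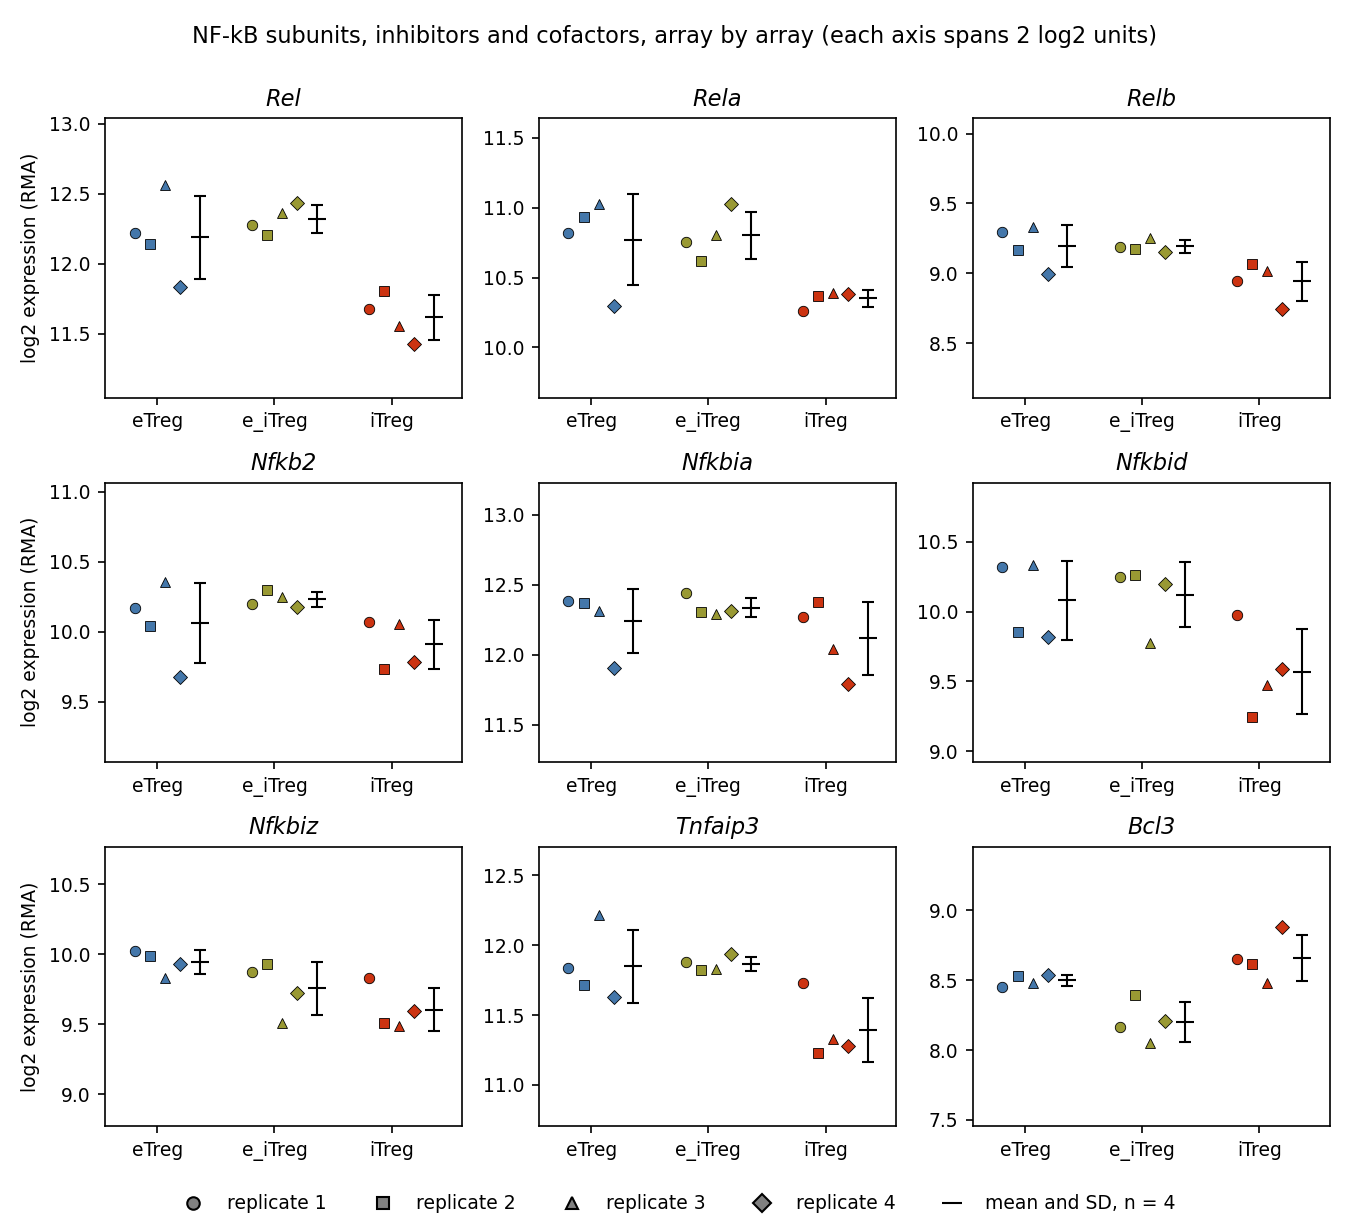
Log2 expression of each measured gene in every array, by group, with marker shapes for replicates 1 to 4 and the group mean and SD (n = 4) beside them. Each panel spans the same 2 log2 units. Rel is lower in all 4 iTreg arrays (11.42 to 11.80) than in any other array, eTreg replicate 4 (diamond) lies low in most panels, and Bcl3 is highest in iTreg and lowest in e_iTreg.

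Nfkbia encodes IkB-alpha, which masks the nuclear import signal of NF-kB and is remade when NF-kB is active. Its level was 12.38, 12.37, 12.31 and 11.90 in the eTreg arrays, 12.44, 12.30, 12.29 and 12.31 in e_iTreg and 12.27, 12.38, 12.04 and 11.79 in iTreg. The 3 groups overlapped. The difference was -0.12 ± 0.14 against eTreg, with an interval from -0.41 to 0.17 (limma adjusted p = 0.704), and -0.22 ± 0.14 against e_iTreg, with an interval from -0.51 to 0.07 (adjusted p = 0.322).

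Tnfaip3 encodes the ubiquitin-editing enzyme that shuts off signals from TNF receptors and the antigen receptor to NF-kB. Its level was 11.84, 11.71, 12.22 and 11.63 in the eTreg arrays, 11.88, 11.82, 11.83 and 11.94 in e_iTreg and 11.73, 11.23, 11.33 and 11.28 in iTreg. The iTreg arrays other than replicate 1 lay below all others, and replicate 1 lay within the eTreg range and below e_iTreg. Tnfaip3 fell by 0.46 ± 0.13 against eTreg (27.1% lower, limma adjusted p = 0.0442) and by 0.47 ± 0.13 against e_iTreg (28% lower, adjusted p = 0.0347). The call against eTreg was close to the threshold, and leaving out any 1 array but eTreg replicate 4 or iTreg replicate 1 ended it, with adjusted p-values up to 0.142. It also ended without the 3 arrays low in B cell markers, at -0.38 (adjusted p = 0.228), and so did the call against e_iTreg, at -0.45 (adjusted p = 0.0655).

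Nfkbid and Nfkbiz encode atypical nuclear IkB proteins, which bind NF-kB on DNA and can raise or lower transcription of chosen targets. Nfkbid was at 10.32, 9.85, 10.33 and 9.82 in the eTreg arrays, 10.25, 10.26, 9.77 and 10.19 in e_iTreg and 9.97, 9.24, 9.47 and 9.59 in iTreg. The ranges overlapped through iTreg replicate 1. The difference was -0.51 ± 0.17 against eTreg (limma adjusted p = 0.0748), and Nfkbid fell by 0.55 ± 0.17 against e_iTreg (adjusted p = 0.0493), a call kept in 9 of 24 alternative fits. It was lost when any 1 array other than eTreg replicate 4, e_iTreg replicate 3 or iTreg replicate 1 was left out, with adjusted p-values up to 0.123. Nfkbiz was at 10.02, 9.99, 9.83 and 9.93 in the eTreg arrays, 9.87, 9.93, 9.51 and 9.72 in e_iTreg and 9.83, 9.51, 9.49 and 9.59 in iTreg. Its means stepped down from eTreg (9.94 ± 0.09) through e_iTreg (9.76 ± 0.19) to iTreg (9.60 ± 0.16), with no neighbouring step past the threshold, and the difference of iTreg from eTreg was -0.34 ± 0.11 (adjusted p = 0.0741).

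Bcl3 encodes a further nuclear IkB protein, which lets certain NF-kB dimers activate transcription, and it moved the other way. Its level was 8.45, 8.53, 8.48 and 8.54 in the eTreg arrays, 8.16, 8.39, 8.05 and 8.21 in e_iTreg and 8.65, 8.62, 8.48 and 8.88 in iTreg. All e_iTreg arrays lay below all arrays of both other groups, and the iTreg arrays overlapped with eTreg. Bcl3 rose in iTreg against e_iTreg by 0.46 ± 0.10 (limma adjusted p = 0.011), and against eTreg the difference was 0.16 ± 0.10, with an interval from -0.06 to 0.38 (adjusted p = 0.439). In e_iTreg minus eTreg it was -0.30 ± 0.10 (adjusted p = 0.704), with ranges that did not overlap, beside 1.66% of all probe sets with e_iTreg lower and 2.63% with e_iTreg higher. The order of its means was therefore e_iTreg (8.2 ± 0.14), eTreg (8.5 ± 0.04) and iTreg (8.66 ± 0.16), and only the ends of that order differed by limma's test. The call was lost without the 3 arrays low in B cell markers (0.46, adjusted p = 0.0547) and with the sex-linked transcripts as a covariate (0.42, adjusted p = 0.0722).

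The differences of Rel, -0.57 against eTreg and -0.70 against e_iTreg, were the lowest of the 9 genes in both comparisons. Rel is singled out here for that reason, so its distance from the others is a description with no test. Next to it came Nfkbid, at -0.51 and -0.55, and Tnfaip3, at -0.46 and -0.47, and the change of Rel minus that of Nfkbid was -0.06 and -0.15.

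The promoters of several of these genes hold letters that match the DNA motif of NF-kB, and the following are shown because the genes differ in how they moved: Rel and Tnfaip3 fell, Nfkbia was not past the threshold and Bcl3 rose against e_iTreg. Each is the 250 bases before the annotated start, 5′ to 3′ on the gene's strand, from RefSeq on GRCm38.p6, with matches to the kappaB consensus on either strand in capitals. Rel lies on the minus strand with its window at chr11:23770970-23771219, Tnfaip3 on the minus strand at chr10:19015411-19015660 for the upstream of its 2 annotated starts, Nfkbia on the minus strand at chr12:55492648-55492897 and Bcl3 on the minus strand at chr7:19822756-19823005.
Rel: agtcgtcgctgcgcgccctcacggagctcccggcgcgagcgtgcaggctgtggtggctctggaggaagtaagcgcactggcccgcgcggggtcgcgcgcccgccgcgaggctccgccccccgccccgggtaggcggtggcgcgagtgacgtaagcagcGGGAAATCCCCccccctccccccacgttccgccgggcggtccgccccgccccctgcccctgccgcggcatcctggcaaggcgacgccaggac
Tnfaip3: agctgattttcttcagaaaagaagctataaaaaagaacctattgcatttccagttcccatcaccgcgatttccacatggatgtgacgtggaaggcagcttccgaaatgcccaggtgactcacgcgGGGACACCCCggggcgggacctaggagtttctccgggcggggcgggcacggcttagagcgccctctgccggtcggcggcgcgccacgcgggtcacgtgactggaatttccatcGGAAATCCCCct
Nfkbia: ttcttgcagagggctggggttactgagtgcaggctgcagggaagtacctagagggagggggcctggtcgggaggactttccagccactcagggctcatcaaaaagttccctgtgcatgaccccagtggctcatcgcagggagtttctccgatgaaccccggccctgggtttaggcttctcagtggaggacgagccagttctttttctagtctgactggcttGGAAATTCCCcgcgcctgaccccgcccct
Bcl3: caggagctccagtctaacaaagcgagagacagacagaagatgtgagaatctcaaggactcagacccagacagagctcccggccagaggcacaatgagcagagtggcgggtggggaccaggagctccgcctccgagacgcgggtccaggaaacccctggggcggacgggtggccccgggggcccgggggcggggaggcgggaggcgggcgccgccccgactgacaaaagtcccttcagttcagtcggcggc

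In the Rel window overlapping matches begin at 2 positions, 92 and 91 bases before the start, and in the Nfkbia window 1 match begins 29 bases before it. The Tnfaip3 window holds matches that begin 125 and 12 bases before the start, and the Bcl3 window holds none. The window of the other Tnfaip3 start, not printed, also holds none. Of the 9 measured genes 7 had a promoter in the RefSeq table, with 12 windows in all, and 5 of the 7 held a match in at least 1 window (Rel, Nfkb2, Nfkbia, Nfkbid and Tnfaip3), while Rela and Bcl3 did not. Relb and Nfkbiz were the other 2. Counted by window, 7 of the 12 held a match, beside 7.25% of all 32851 windows of this length, and counted by gene 5 of 7, beside 8.23% of all 27025 genes in the table. A match is a description of the letters in these windows, and genes with a match were found among those that fell (Rel, Tnfaip3 and Nfkbid) and those with no call in any comparison (Nfkb2 and Nfkbia).

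Calls among the genes that carry signals to NF-kB ran in both directions. The shares of all probe sets to read them against are 4.63% lower and 5.36% higher against eTreg, and 4.75% lower and 6.49% higher against e_iTreg. In either direction the shares are 9.99% and 11.2%. Of 20 measured receptors known to signal to NF-kB, 2 fell and 2 rose in iTreg against eTreg, with a median difference of -0.06. Those that fell were Tnfrsf25, a death domain receptor that costimulates Treg, by 0.56 ± 0.11 (limma adjusted p = 0.00534), and the costimulator Cd27, by 0.50 ± 0.13 (adjusted p = 0.0277), a call kept in 16 of 24 alternative fits. Those that rose were the IL-1 receptor chain Il1r1, by 0.79 ± 0.19 (adjusted p = 0.0171), and the IL-18 receptor chain Il18r1, by 0.77 ± 0.23 (adjusted p = 0.048). Il1r1 was among the dimmer probe sets, at 5.49 ± 0.10 in eTreg and 6.28 ± 0.51 in iTreg, and the call of Il18r1 held in 11 of 24 alternative fits. Against e_iTreg Tnfrsf25 fell and Il18r1 and Il1r1 rose, the last just inside the threshold (adjusted p = 0.05). Those calls held in 12 of 24 (Tnfrsf25, adjusted p up to 0.14), 15 of 24 (Il18r1, up to 0.128) and 7 of 23 alternative fits (Il1r1, up to 0.22), and Cd27 was at -0.25 ± 0.13, not past it.

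Of 25 measured adaptors and kinases on the way to NF-kB, 3 fell and 2 rose against eTreg (median -0.13), and 2 fell and 2 rose against e_iTreg (median -0.07). Map3k14, which encodes the NF-kB-inducing kinase of the noncanonical pathway, was at 7.89, 8.19, 8.32 and 8.13 in the eTreg arrays, 7.82, 7.82, 8.42 and 8.42 in e_iTreg and 7.39, 7.31, 7.43 and 7.42 in iTreg. All 4 iTreg arrays lay below the rest and close to each other, and Map3k14 fell by 0.75 ± 0.15 against eTreg (limma adjusted p = 0.00482) and by 0.73 ± 0.15 against e_iTreg (adjusted p = 0.00533). Traf1, an adaptor of TNF receptors that is itself induced by NF-kB, was at 10.82, 10.85, 10.86 and 10.81 in the eTreg arrays, 10.67, 10.67, 10.65 and 10.76 in e_iTreg and 10.36, 10.45, 10.22 and 10.15 in iTreg. The 3 groups did not overlap, and Traf1 fell by 0.54 ± 0.09 against eTreg and by 0.39 ± 0.09 against e_iTreg (adjusted p = 0.00201 and 0.0106). The call against eTreg held in all 24 alternative fits.

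The remaining fall was in Ikbke, an IkB kinase relative that also serves interferon signalling, by 0.49 ± 0.13 against eTreg (limma adjusted p = 0.0248), and it was at -0.38 ± 0.13 against e_iTreg, not past the threshold. The adaptors that rose were Tradd, which couples TNF receptor 1 to its kinases, by 0.53 ± 0.12 and 0.50 ± 0.12 against eTreg and e_iTreg, and Myd88, the adaptor of Toll-like and IL-1 family receptors, by 0.38 ± 0.10 and 0.46 ± 0.10. For both genes all 4 iTreg arrays lay above all 8 others. The call of Ikbke against eTreg held in 18 of 24 alternative fits. Those of Tradd held in 23 of 24 against eTreg and 18 against e_iTreg, and those of Myd88 in 18 and 23.

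Of 22 other inhibitors of NF-kB that were measured, 4 fell and none rose against eTreg (median -0.02), and the same 4 fell and none rose against e_iTreg (median -0.04), beside 4.63% and 4.75% of all probe sets that were lower. They were Tnip1, the partner protein of the Tnfaip3 product, Zc3h12a, an RNase that degrades messages of Rel and of inflammatory genes, Irak3, a brake on Toll-like receptor signals, and Trim13, a ubiquitin ligase. Tnip1 was at 10.28, 10.21, 10.42 and 10.15 in the eTreg arrays, 10.14, 10.12, 10.20 and 10.33 in e_iTreg and 9.90, 9.77, 9.82 and 9.79 in iTreg. It fell by 0.44 ± 0.09 against eTreg (limma adjusted p = 0.00632) and its iTreg arrays lay below all others. Zc3h12a was at 9.93, 9.88, 10.04 and 9.27 in the eTreg arrays, 10.03, 9.97, 10.15 and 10.03 in e_iTreg and 9.18, 9.28, 9.32 and 9.15 in iTreg. As in Rela, eTreg replicate 4 lay among the iTreg arrays, and Zc3h12a fell by 0.55 ± 0.14 against eTreg (adjusted p = 0.0193) and by 0.82 ± 0.14 against e_iTreg (adjusted p = 0.00234). Irak3 fell by 0.55 ± 0.13 and Trim13 by 0.78 ± 0.16 against eTreg. Against eTreg the 4 calls held in 20 to 23 of 24 alternative fits. Against e_iTreg the call of Trim13 held in 14 of 24, beside 20 for Tnip1, 22 for Irak3 and 24 for Zc3h12a.

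Of 28 measured target genes of NF-kB, 3 fell and 1 rose against eTreg, and 3 fell and none rose against e_iTreg, with medians of 0.03 and -0.000431. Of all probe sets 4.63% were lower and 5.36% higher against eTreg, and 4.75% and 6.49% against e_iTreg. Ccr7, the chemokine receptor for homing to lymph nodes, fell by 1.26 ± 0.22 and 1.17 ± 0.22, the activation marker Cd83 by 0.74 ± 0.21 and 0.85 ± 0.21 and the cytokine lymphotoxin beta, Ltb, by 0.45 ± 0.10 and 0.38 ± 0.10. Both calls of Ccr7 held in all 24 alternative fits. Those of Cd83 held in 15 of 24 against eTreg and 22 against e_iTreg, and those of Ltb in 23 and 16. The early response gene Ier3 rose by 0.36 ± 0.10 against eTreg (limma adjusted p = 0.0388), a call lost in 13 of 23 alternative fits (adjusted p up to 0.161). Its level was low (6.27 ± 0.10 in eTreg and 6.63 ± 0.07 in iTreg). The apoptosis inhibitor Birc3 was at -0.38 ± 0.12 (adjusted p = 0.06) and the adhesion molecule Icam1 at 0.29 ± 0.14 (adjusted p = 0.268) against eTreg, neither past the threshold. The differences of the 28 from eTreg ran from -1.26 to 1.2, and 16 were above 0 and 12 below.

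**Figure D4:**
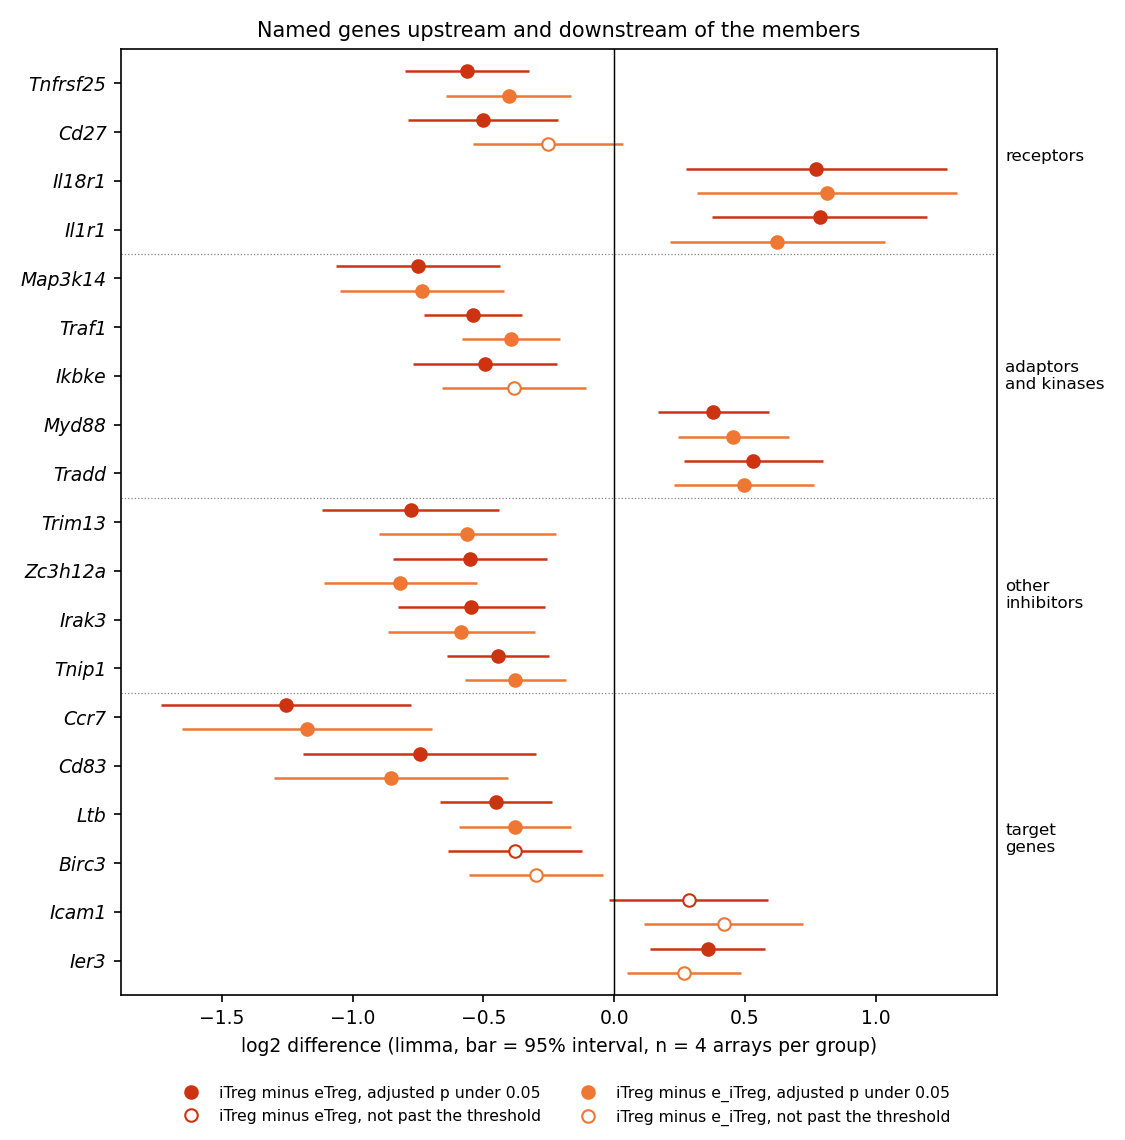
Log2 differences of named genes upstream and downstream of NF-kB in iTreg against eTreg and e_iTreg, with 95% intervals from limma and filled points where the adjusted p was under 0.05. The 4 inhibitors are filled and below 0 in both comparisons, while receptors, adaptors and target genes lie on both sides of 0.

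Other programmes moved with the same groups. The mean of 19 immediate early genes, which respond to receptor signals and to cell handling, was 9.62 to 9.99 in iTreg, 9.94 to 10.41 in eTreg and 10.25 to 10.55 in e_iTreg. Of the 19, 6 fell and none rose against eTreg, beside 4.63% of all probe sets that were lower. Against e_iTreg 8 fell and none rose, beside 4.75% lower, and all 19 differences were below 0. For the mean of this list the lowest eTreg array was replicate 4 (9.94), the array lowest for most NF-kB genes. The mean of 24 cell cycle genes was 9.34 to 10.11 in iTreg against 7.37 to 8.90 in the other arrays. Of the 24, 23 rose against eTreg, beside 5.36% of all probe sets that were higher. The part of either in the NF-kB results was not tested.

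By the smallest root mean square difference of centred log2 profiles over the 12 arrays, the 5 genes most like Rel among 10658 candidates were Dusp5, Ythdc1, Susd6, Noxa1 and Csrnp1, with values of 0.12, 0.12, 0.12, 0.12 and 0.13 beside a spread of Rel about its own mean of 0.35. Dusp5, a phosphatase of nuclear ERK kinases, was at 11.96, 11.79, 12.25 and 11.59 in the eTreg arrays, 12.02, 11.96, 11.87 and 12.12 in e_iTreg and 11.71, 11.42, 11.28 and 11.10 in iTreg. In eTreg it had the same order of arrays as Rel, highest in replicate 3 and lowest in replicate 4. Ythdc1, a nuclear reader of methylated adenosine in RNA, was at 11.16 in eTreg replicate 3 and 10.54 in replicate 4, and at 10.29 to 10.52 in iTreg. These genes were picked for their likeness, so their profiles are a description.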

How the data were processed

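Splenic Treg of 12 samples were hybridised to Affymetrix arrays from 2 ng of RNA each after amplification, per the labels' protocols. The authors deposited 1 log2 expression value for each probe set and array, made with oligo and RMA, per the submitters' processing notes, with versions and settings not given in the sources used here. Medians of the probe sets still ranged from 6.28 to 6.50 between arrays, which is why other scalings were tried.

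Of 41345 rows, 23521 with exactly 1 symbol in the probe annotation were tested, 1814 had several symbols and 16010 none, and 23328 were matched by gene number to the RefSeq table of GRCm38.p6 for names. All arrays entered 1 limma fit (version 3.58.1, R 4.3.3) of 3 group means, with 9 residual and 5.78 prior degrees of freedom and two-sided moderated tests, with Benjamini-Hochberg adjustment over all rows tested. The fit was tested on simulated data. Precision is limited by having 4 arrays a group.

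The genes, the pathway and marker lists and some alternatives were chosen with earlier results of these data known. Named genes were every member, of each pathway list genes past the threshold where 5 or fewer passed and others among the 5 with the smallest p in a comparison of iTreg, defining markers, check-list genes past the threshold where 5 or fewer passed, and the 5 genes most like Rel among probe sets above the median level. Promoters were searched for the kappaB consensus on both strands. Overlapping matches that began at different positions were both counted, and a position that matched on both strands was counted once. Alternatives were quantile normalization, median centring, a filter on dim probe sets, all rows, 1 probe set per gene, a trend with robust prior, array weights, a fit of only the 2 groups compared, a replicate block, B cell marker and sex-linked covariates, leaving out the 3 arrays low in B cell markers, and leaving out each array.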

Additional observations from a re-analysis of the deposited data

Results flagged for a closer look

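In 84 groups of 4 arrays (9 NF-kB genes and 19 pathway genes in 3 groups each), 5 held an array far from the other 3, where chance gives about 1 in 20. Nfkbia in eTreg replicate 4 stood at 11.90 against 12.31 to 12.38 in the other eTreg arrays, and in e_iTreg replicate 1 at 12.44 against 12.29 to 12.31. Nfkbid in e_iTreg replicate 3 stood at 9.77 against 10.19 to 10.26. Of the pathway genes, Cd27 in iTreg replicate 4 stood at 10.14 against 9.55 to 9.62, and Myd88 in eTreg replicate 4 at 9.67 against 9.60 to 9.61. Without e_iTreg replicate 3 the fall of Nfkbid against e_iTreg was 0.67 (limma adjusted p = 0.0331), and without iTreg replicate 4 that of Cd27 against eTreg was 0.64 (adjusted p = 0.00372). Each array left out lay towards the group it was compared with. A larger fall without it follows from that choice and is no support for either call.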

How the results depend on the processing

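The fall of Rel kept its direction in all 24 alternative fits of both comparisons and its call in 23 (against eTreg, adjusted p from 0.00699 to 0.0521) and 24 (against e_iTreg, 0.00205 to 0.0374). The call of Tnfaip3 held in 7 of 24 against eTreg (adjusted p up to 0.228) and 14 of 24 against e_iTreg (up to 0.122), that of Nfkbid in 9 of 24 against e_iTreg (up to 0.138) and that of Bcl3 in 22 of 24 (up to 0.0722). All 4 kept their sign throughout. The cause of the losses was not tested.

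Members past the threshold in iTreg minus eTreg, 2 in the reported fit, numbered 1 with median centring, with all rows, with the 2 groups alone, with B cell markers as a covariate, without the 3 arrays low in B cell markers and with the sex-linked covariate, and 5 among probe sets above the median level, where fewer rows are adjusted over. Leaving out 1 array gave 1 to 4. In iTreg minus e_iTreg, 4 in the reported fit, they numbered 2 with median centring and with all rows, 1 without the 3 arrays and with the sex-linked covariate, and 2 to 5 without 1 array. Over all rows, 2349 and 2643 calls became 400 and 1356 without the 3 arrays and 972 in the second with the sex-linked covariate. They ranged from 1487 to 2437 and from 1616 to 2852 without 1 array. The fit without the 3 arrays has fewer samples as well as other B cell marker levels, and the part of each was not tested.

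Signs turned only for uncalled differences of e_iTreg minus eTreg. Relb was 0.0514 after quantile normalization. Median centring gave -0.0461 for Rela, -0.0393 for Nfkbid and -0.0615 for Tnfaip3. Without the 3 arrays Rela was -0.148 and Nfkbia -0.0321, and with the sex-linked covariate Rela was -0.0201. Leaving out 1 array gave -0.124 to 0.119 for Rela, -0.0708 to 0.0409 for Relb, -0.0178 to 0.143 for Nfkbia, -0.0476 to 0.155 for Nfkbid and -0.0562 to 0.14 for Tnfaip3.

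Deviations of same-numbered arrays were weakly correlated (from -0.15 to 0.24, over 0.1 in 3 of 12 pairs), so the numbers were not taken as pairs. Between eTreg and e_iTreg every such correlation was above 0, from 0.07 to 0.24. With the replicate block 2, 4 and 0 members passed in iTreg minus eTreg, iTreg minus e_iTreg and e_iTreg minus eTreg. Having 4 arrays in each group limits which differences could be called.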
